A study of Saccharomyces cerevisiae with 17 samples.

Results

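The galactose response of wild-type budding yeast (Saccharomyces cerevisiae) was read from 4 RNA-seq libraries, 2 from glucose cultures and 2 from galactose cultures, out of 17 samples in the series, of which 8 are RNA libraries. All 6572 gene rows of the 4 deposited count tables were taken, after 5 summary lines per table had been set aside. The strain is YPH399, a MATα haploid labelled wild type (WT), and both groups share its marker alleles ade2-10, leu2-1, lys2-801, Trp1-63 and ura3-52. Glucose cultures held 2% of that sugar, whereas galactose cultures were first grown with 2% raffinose and 0.04% sucrose and then received 2% galactose for 2 h, all at 30 °C. No wild-type culture in raffinose without galactose was analysed here, so the effect of galactose, that of the earlier growth in raffinose and sucrose and that of the absence of glucose cannot be told apart. Strain yDBK168, which carries the same marker alleles and brr6-1:LEU2:HIS3, an arginine-to-lysine change in the nuclear envelope protein Brr6, went through the same cultures and serves below only to show where the wild-type response differs.

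Baker's yeast takes glucose first. While glucose is present, the repressor Mig1 and its partners keep genes for other sugars, for respiration and for non-fermentable carbon switched off, and low-affinity hexose transporters are switched on. Galactose enters through the permease Gal2 and is turned into glucose-6-phosphate by the Leloir pathway (Gal1, Gal7, Gal10 and phosphoglucomutase), whose genes are driven by the activator Gal4 once the sensor Gal3 has taken the inhibitor Gal80 off it.

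Gene counts per wild-type library ran from 18853431 to 21637381. Libraries of one group correlated across genes at r = 0.995 in glucose and 0.989 in galactose on the log2 scale. The galactose libraries differed in the reads that fell outside genes, which made up 37.3% of reads in and outside genes in galactose A and 26.7% in galactose B, against 23.4 and 24.1% in glucose A and B. Levels are given as CPM, gene counts scaled to a common library size by the trimmed mean of M values (TMM), so they are shares of the RNA in a library and not amounts per cell. In a culture, a lower level per cell and fewer cells with the transcript cannot be told apart. The mating type was read first as a check of the strain. The alpha-factor gene MF(ALPHA)1 stood at 201 and 229 CPM in glucose A and B and at 113 and 88.0 CPM in galactose A and B, and STE3, the receptor gene of alpha cells, at 127 and 124 CPM and 103 and 88.0 CPM. Of the genes that a cells use, MFA1 stayed at or under 0.801 CPM and MFA2 had 0 counts in glucose, while STE2 lay at 5.49 to 8.07 CPM and STE6 at 51.3 to 76.1 CPM. AGA2, also of a cells, had 3 counts over both glucose and 18 over both galactose libraries. Of 10 marker genes of mating type tested below, 4 were lower and 2 higher in galactose. The 2 were STE6 and BAR1, both used by a cells, and both calls were lost in some alternatives. Not all markers thus went with the MATα label, and the reason was not tested. HIS3 had 0 counts in both glucose libraries and 9 counts over both galactose libraries, although the labels list no his3 allele for this strain.

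In all, 6297 genes had enough counts to be tested, of which 1532 (24.3%) were higher and 1288 (20.5%) lower in galactose at an adjusted p under 0.05. That is 2820 genes or 44.8% (edgeR's quasi-likelihood test with Benjamini-Hochberg adjustment, fitted to all 8 RNA libraries, n = 2 per group). Each effect below is given as the log2 fold change of galactose over glucose with its standard error, where 1 unit is a change of 2-fold. Large rises outnumbered large falls. At least 2-fold changes numbered 655 upward (10.4%) and 223 downward (3.54%), at least 4-fold changes 197 and 23, and at least 16-fold changes 32 and 2. The CPM ranges of the galactose and glucose libraries did not overlap for 75.9% of the tested genes, called or not. A lack of overlap, as given for single genes below, is therefore common. The calls were spread over all 16 chromosomes, with 22.9 to 32.1% of the tested genes of each one higher and 17.5 to 24.2% lower.

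The direction of change went with the level of a gene. Of 945 genes above 8 log2 CPM, 498 were lower and 92 higher, with a median change of -0.45. Of 1111 genes under 2 log2 CPM, 171 were higher and 17 lower, with a median of 0.73. In that lowest range galactose A lay above galactose B by a median of 0.76 log2 units, against 0.06 between glucose A and B, and galactose A is also the library with more reads outside genes. Without galactose A the median of these rare genes was 0.12 and 61 were higher, and without galactose B it was 1.05 and 306 were higher. The part of those reads in this was not tested.

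**Figure D1:**
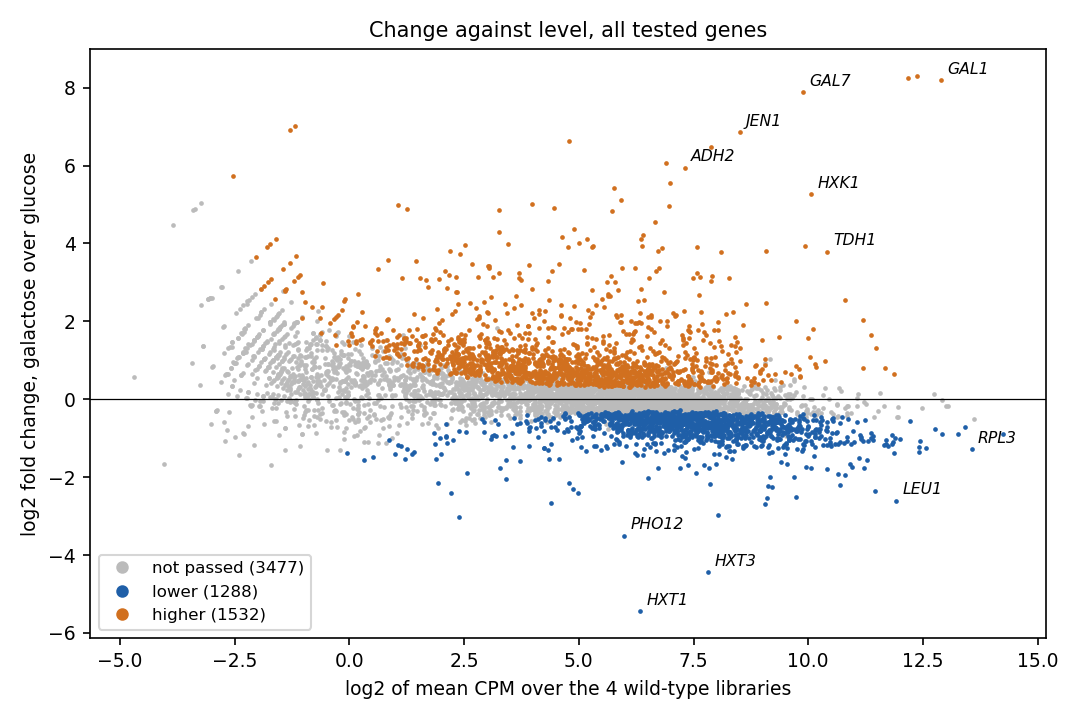
Change of each of the 6297 tested genes against its level. The x axis is log2 of the mean CPM over the 4 wild-type libraries and the y axis the log2 fold change of galactose over glucose, with higher genes in orange, lower genes in blue and genes that did not pass in grey. GAL1 lies at the upper right with a change of 8.20, HXT1 at the bottom with -5.44, and abundant genes such as RPL3 lie below 0.

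The scaling sets where 0 lies. With library totals alone in place of TMM, the median of all genes moved up by 0.29 and 79.7% of the calls were higher in place of 54.3%, and cyclic loess moved it by -0.11. Under neither scaling did a gene called here pass in the opposite direction, but 12 of the abundant genes looked at one by one took the opposite sign under cyclic loess. Values below are from TMM unless another scaling is named.

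The galactose genes had the largest median rise of the lists examined. GAL1, which encodes galactokinase, stood at 34.4 and 69.2 CPM in glucose A and B and at 13354 and 17182 CPM in galactose A and B. Both galactose libraries were far above both glucose libraries, a 294-fold rise (8.20 ± 0.42, adjusted p = 5.5e-07). GAL10, which encodes UDP-galactose 4-epimerase, went from 20.6 and 39.1 to 8367 and 9919.9 CPM in the same order of libraries. For GAL7, the gene of galactose-1-phosphate uridylyltransferase, the values were 6.19 and 9.73 CPM in glucose and 1721 and 2060.3 CPM in galactose. The permease gene GAL2 had 19.7 and 47.3 CPM in glucose and 10600.3 and 10568 CPM in galactose. None of the 3 overlapped between groups, nor did 75.9% of all tested genes. The rises were 8.26 ± 0.41 for GAL10, 7.88 ± 0.29 for GAL7 and 8.30 ± 0.49 for GAL2 (adjusted p from 6.3e-08 to 1.3e-06). In glucose, library B lay above library A for each of the 4 genes.

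GAL7, GAL10, GAL1 and FUR4 lie side by side on chromosome II (R64). GAL7 spans 274427 to 275527, GAL10 276253 to 278352, GAL1 279021 to 280607 and FUR4 281443 to 283344. FUR4 encodes a uracil permease and rose far less than its neighbours, from 23.9 and 33.0 to 103 and 90.3 CPM (1.77 ± 0.16, adjusted p = 3.4e-05). GAL2 lies apart on chromosome XII (290212 to 291936). Together GAL1, GAL10, GAL2 and GAL7 took 3.56 and 3.84% of all gene counts in galactose A and B, against 0.00672 and 0.0134% in glucose A and B. Per kilobase of gene, GAL1 reached a mean of 9621 CPM in galactose and ranked 2 among all genes, behind RPL10, a ribosomal protein gene at 10385.

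Regulators of the pathway rose too, by amounts that differed. GAL3, the galactose sensor, rose from 5.04 and 5.49 to 422 and 515 CPM (6.47 ± 0.17, adjusted p = 1.9e-08). GAL80, which holds Gal4 inactive, stood at 54.5 and 45.8 CPM in glucose and 189.6 and 254 CPM in galactose (2.14 ± 0.22, adjusted p = 6.1e-05). GAL4 itself was a rare transcript, at 1.47 and 1.72 CPM in glucose and 9.34 and 8.25 CPM in galactose, and rose by 2.46 ± 0.31 (adjusted p = 2.5e-04). The galactose libraries lay above the glucose libraries for all 3 regulators, with the largest rise in GAL3. Phosphoglucomutase, the last step of the pathway, changed form. PGM2 went from 73.9 and 70.5 to 979 and 1030.4 CPM (3.80 ± 0.21, adjusted p = 1.0e-06), while PGM1 went from 479 and 475 to 183 and 199 CPM (-1.32 ± 0.12, adjusted p = 2.4e-05). PGM1 is the only one of the 14 genes on the list that fell, and the other 13 rose, against 24.3% of all tested genes. Among them are GCY1 (3.13 ± 0.12), an aldo-keto reductase, MTH1 (4.90 ± 0.31), a co-repressor of hexose transporter genes, PCL10 (1.32 ± 0.15), a cyclin of the kinase Pho85, and LAP3 (1.16 ± 0.22), a cysteine aminopeptidase. The median of the list was 3.46, against 0.10 over all tested genes, and 3.38 to 3.76 under the other scalings.

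**Figure D2:**
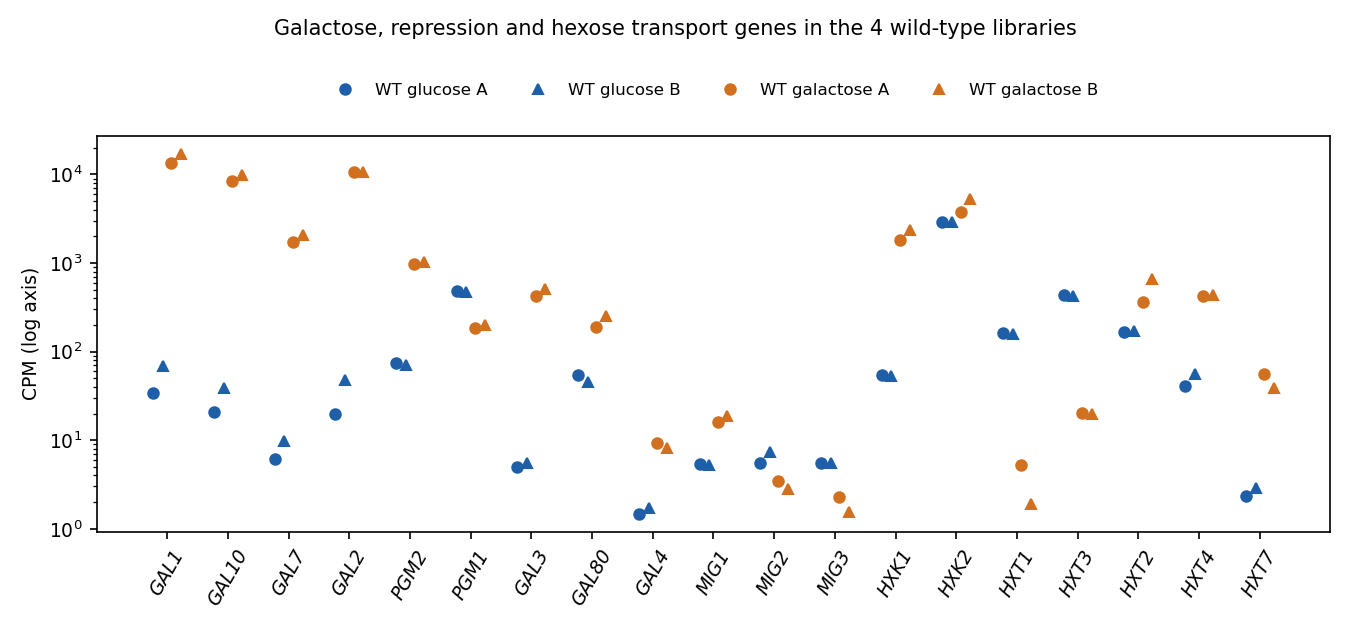
CPM on a log axis of galactose, repression and hexose transport genes in each of the 4 wild-type libraries (circles A, triangles B, blue glucose, orange galactose). Each point is one library. GAL1, GAL10, GAL7 and GAL2 stand at 6.19 to 69.2 CPM in glucose and at 1721 to 17182 CPM in galactose, and PGM1, MIG2, MIG3, HXT1 and HXT3 run the other way.

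Among genes that control glucose repression, the activator genes CAT8, ADR1 and HAP4 rose and the repressors of the Mig family diverged. MIG1, the main repressor gene, rose from 5.43 and 5.21 to 15.9 and 18.7 CPM (1.70 ± 0.20, adjusted p = 1.4e-04). Its relatives MIG2 and MIG3 went down, MIG2 from 5.49 and 7.33 to 3.45 and 2.79 CPM (-1.04 ± 0.23, adjusted p = 0.00521) and MIG3 from 5.49 and 5.55 to 2.27 and 1.55 CPM (-1.52 ± 0.28, adjusted p = 0.00181). MIG2 no longer passed without glucose B (adjusted p = 0.0545). CAT8, an activator of genes for growth without fermentable sugar, had 8.11 and 8.99 CPM in glucose and 186 and 134 CPM in galactose (4.23 ± 0.21, adjusted p = 4.0e-07). ADR1, which activates alcohol and fatty acid use, rose from 12.8 and 13.8 to 138 and 135 CPM (3.36 ± 0.18, adjusted p = 8.4e-07). HAP4, the regulated subunit of the activator of respiratory genes, rose from 11.9 and 14.3 to 88.6 and 66.3 CPM (2.57 ± 0.21, adjusted p = 1.4e-05). The galactose libraries lay above the glucose libraries for each of these 3 activators. Not all activator genes of the list rose as clearly. SIP4 rose by 1.24 ± 0.46 (adjusted p = 0.0488), a call lost in 7 of the 13 alternatives, and ERT1 (0.55 ± 0.28, adjusted p = 0.141) and RDS2 (-0.14 ± 0.12, adjusted p = 0.397) did not pass, although ERT1 passed upward with library totals alone and without galactose B.

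Among the partners of these factors, HAP2 (1.11 ± 0.21) rose as well, and HAP3 (0.33 ± 0.14, adjusted p = 0.0742) did not pass, but did so upward with library totals alone and without galactose A. USV1 (3.14 ± 0.26) and GSM1 (2.18 ± 0.24), both zinc finger genes, were up too. The subunits and partners of the Snf1 kinase, which relieves repression, differed among themselves. SNF1 rose by 0.56 ± 0.13, SNF4 (-0.24 ± 0.12, adjusted p = 0.134) and GAL83 (-0.14 ± 0.14, adjusted p = 0.451) did not pass, and SIP2, a further subunit, rose by 1.05 ± 0.13. REG1, a phosphatase subunit that acts on the kinase, rose by 0.87 ± 0.13, and SAK1, a kinase that activates it, by 0.58 ± 0.15, a call lost without glucose A (adjusted p = 0.147) and without glucose B (0.0561). SNF1 no longer passed without glucose A (adjusted p = 0.0617) and without glucose B (0.138). The co-repressor pair CYC8 (1.35 ± 0.23) and TUP1 (0.77 ± 0.15) rose, as did the repressor NRG1 (1.44 ± 0.31). Of the membrane glucose sensors, SNF3, which senses low glucose, rose from 59.5 and 57.1 to 160.3 and 159 CPM (1.46 ± 0.12, adjusted p = 1.7e-05), and RGT2, which senses high glucose, did not pass (-0.07 ± 0.12, adjusted p = 0.636). Of the 39 genes of repression and sensing, 21 were higher (53.8%), 3 lower (7.69%) and 15 did not pass, with a median of 0.58. The shares of all tested genes were 24.3% higher and 20.5% lower. The 3 that fell were MIG2, MIG3 and GLC7, a phosphatase catalytic subunit (-0.53 ± 0.14). The call of GLC7 was lost with library totals alone (adjusted p = 0.143), under cyclic loess (0.891) and without glucose B (0.0544), and its value under cyclic loess was -0.02. The count of lower genes was 1 without glucose B and 5 under DESeq2 size factors.

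Hexose transporters were exchanged. HXT1, a low-affinity transporter gene, stood at 161 and 157 CPM in glucose A and B and at 5.30 and 1.91 CPM in galactose A and B. It fell 43.4-fold (-5.44 ± 0.41, adjusted p = 8.0e-06), further than any other tested gene that passed. HXT3, also of low affinity, fell 21.7-fold, from 435 and 427 to 20.1 and 19.6 CPM (-4.44 ± 0.14, adjusted p = 3.8e-08). The groups did not overlap for either gene, nor for 75.9% of all tested genes. HXT1 and HXT3 are the only transporter genes of the list that fell. HXT7, of high affinity, rose from 2.36 and 2.92 to 55.6 and 39.2 CPM (4.16 ± 0.24, adjusted p = 1.1e-06). HXT4 rose from 40.8 and 56.3 to 426 and 439 CPM (3.15 ± 0.26, adjusted p = 1.6e-05) and HXT2 from 166 and 169 to 361 and 652 CPM (1.59 ± 0.27, adjusted p = 0.00117). In galactose the B library was the higher of the pair for HXT2 and the lower for HXT7, and both pairs lay above glucose.

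HXT5 (3.06 ± 0.29), HXT10 (2.65 ± 0.28) and HXT8 (1.32 ± 0.23) were higher too. HXT6, whose sequence is nearly identical to that of HXT7, had 0 counts in glucose and 36 over both galactose libraries, so it was at least 9.60-fold higher in galactose with 3 counts taken as the floor for the glucose pair. Reads that matched both genes were not counted, so the levels of HXT6 and HXT7 are uncertain, and the call for HXT6 did not hold without glucose B. HXT9, HXT11, HXT13, HXT14, HXT15 and HXT17 stayed at 5.26 CPM or less in every library and did not pass. With library totals alone HXT11 (1.24) and HXT13 (1.63) passed upward. Without galactose B, which leaves galactose A alone, the log2 fold changes were 1.36 for HXT11, 1.94 for HXT13 and 1.60 for HXT14. HXT16 had 0 counts in all 4 libraries, and 1 listed transporter gene has no row in the tables. Of the 15 transporter genes tested, 7 were higher (46.7%) and 2 lower (13.3%), against 24.3 and 20.5% of all tested genes. Their median of 1.31 was 0.43 under cyclic loess and 0.18 without galactose A. Without galactose B 10 were higher.

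Genes for the use of sucrose and maltose rose, although maltose was not added to the medium. SUC2, the invertase that splits sucrose and raffinose outside the cell, went from 121 and 116 to 1519 and 2135 CPM (3.95 ± 0.20, adjusted p = 5.5e-07). MAL12, a maltase gene, rose from 0.702 and 1.14 to 27.7 and 33.4 CPM (5.02 ± 0.24, adjusted p = 3.8e-07). ZNF1, a zinc cluster regulator gene, rose from 3.64 and 3.55 to 104 and 100.2 CPM (4.83 ± 0.21, adjusted p = 2.2e-07). All galactose libraries exceeded all glucose libraries for these genes. The second maltase gene MAL32 (3.72 ± 0.36) and the maltose permease genes MAL31 (1.99 ± 0.15) and MAL11 (1.67 ± 0.17) were up as well, though MAL12 and MAL32 share nearly all of their sequence and are uncertain one by one. In this list 10 of 13 tested genes were higher and 0 lower, against 24.3 and 20.5% of all tested genes, with a median of 1.40. The regulator MAL13 had 0.09 ± 0.15, adjusted p = 0.646.

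In glycolysis several isoenzymes rose while the core enzymes PGK1, FBA1 and CDC19 did not pass. HXK1, a hexokinase gene, rose from 54.1 and 53.3 to 1822 and 2336 CPM (5.27 ± 0.20, adjusted p = 6.9e-08). GLK1, glucokinase, rose from 557 and 483 to 3106 and 2998 CPM (2.55 ± 0.17, adjusted p = 3.8e-06), and it overlaps YCL042W by 106 bp, so reads of the pair may have been split. HXK2, the main hexokinase and a partner of Mig1, stood at 2911 and 2926 CPM in glucose and 3757 and 5340.5 CPM in galactose (0.64 ± 0.20, adjusted p = 0.0231) and no longer passed without glucose A (adjusted p = 0.144), without glucose B (0.147) and without galactose B (0.155). TDH1, 1 of 3 genes of glyceraldehyde-3-phosphate dehydrogenase, rose from 183 and 182 to 3031 and 2013 CPM (3.79 ± 0.27, adjusted p = 5.4e-06), whereas TDH3 stood at 2329 and 2533 CPM in glucose and 2392 and 2213 CPM in galactose (-0.08 ± 0.16, adjusted p = 0.712). The enolase gene ENO1 rose from 857 and 980.3 to 4229 and 3323 CPM (2.04 ± 0.20, adjusted p = 4.6e-05), while ENO2 went from 13809 and 13567 to 8084 and 8558 CPM (-0.72 ± 0.17, adjusted p = 0.00679). Copies within the TDH and ENO families are close in sequence, so their single values are uncertain.

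Phosphoglycerate kinase, PGK1 (-0.01 ± 0.16, adjusted p = 0.972), aldolase, FBA1 (-0.22 ± 0.16, adjusted p = 0.272) and the pyruvate kinase gene CDC19 (-0.51 ± 0.25, adjusted p = 0.119) did not pass. Under cyclic loess PGK1, FBA1 and TDH3 passed upward and ENO2 had a positive value that did not pass, whereas CDC19 passed downward by DESeq2's Wald test and in the fit of only the 4 wild-type libraries. The regulators PFK26 (1.06 ± 0.12) and EMI2 (1.53 ± 0.18) rose, the former a 6-phosphofructo-2-kinase gene and the latter a relative of glucokinase. Of 22 glycolytic genes, 10 were higher (45.5%) and 2 lower (9.09%), against 24.3 and 20.5% of all tested genes, with a median of 0.14. The number higher was 6 without glucose A and 16 under cyclic loess, where 0 were lower. The list took 5.73 and 5.36% of gene counts in glucose A and B and 6.70 and 6.49% in galactose A and B.

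The exchange of isoenzymes is clearest as shares of a pair, computed from CPM per kilobase. PGM2 made up 13.4 and 13.0% of PGM1 plus PGM2 in glucose A and B and 84.3 and 83.8% in galactose A and B. HXT7 made up 1.44 and 1.83% of HXT1 plus HXT7 in glucose and 91.3 and 95.4% in galactose. In galactose HXT7 still lay below HXT4 and HXT2, and its level is uncertain, as given above. HXK2 held 98.2% of the hexokinase pair in both glucose libraries and 67.3 and 69.5% in galactose. TDH3 held 92.7 and 93.3% of TDH1 plus TDH3 in glucose and 44.1 and 52.4% in galactose. Single values within the TDH family are uncertain, as given above, so this share is too, and it leaves out the remaining TDH gene. In each of these pairs the libraries of the groups did not overlap. CIT2, the peroxisomal citrate synthase, went from 68.0 and 66.7% of CIT1 plus CIT2 in glucose to 32.2 and 38.3% in galactose. ADH2, for its 61.7-fold rise, still made up only 3.45 and 4.32% of ADH1 plus ADH2 in galactose, after 0.0541 and 0.0622% in glucose.

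**Figure D3:**
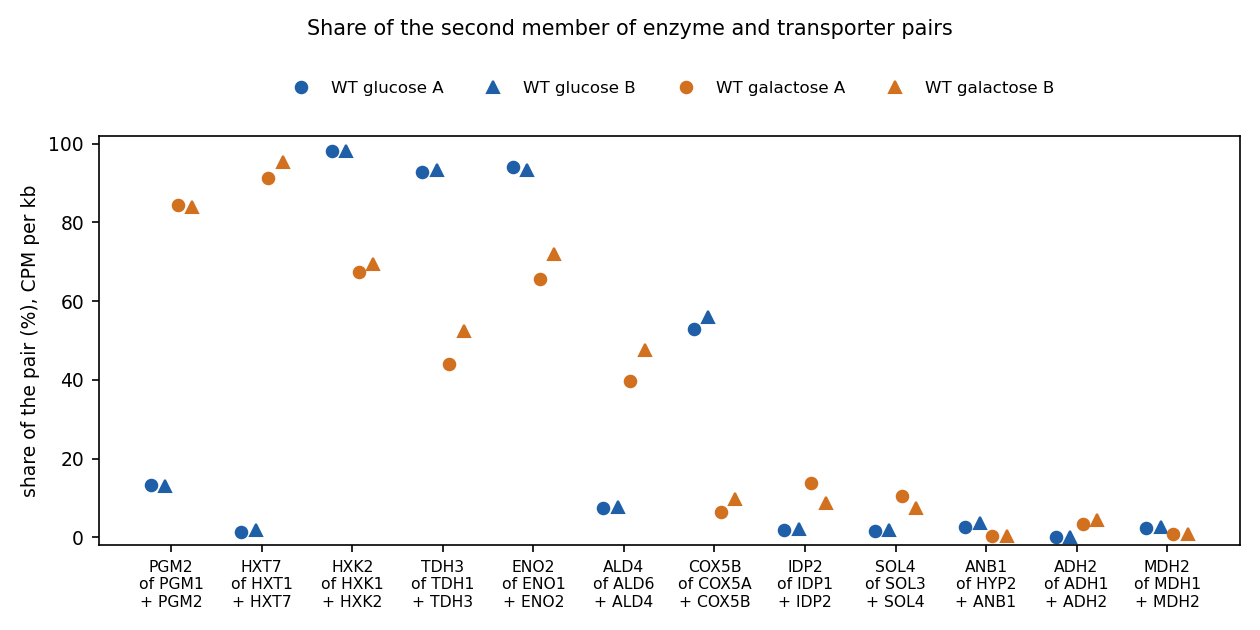
Share (%) of the second-named member in pairs of enzyme or transporter genes, from CPM per kilobase, in each wild-type library (circles A, triangles B, blue glucose, orange galactose). PGM2 and HXT7 move from under 15% in glucose to over 80% in galactose, HXK2, TDH3, ENO2 and COX5B lose share, and MDH2 and ADH2 stay below 5% in all 4 libraries.

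Genes of alcohol and acetate metabolism went in both directions. ADH2, which encodes the alcohol dehydrogenase that consumes ethanol, rose from 4.92 and 5.21 to 268 and 358 CPM (5.95 ± 0.38, adjusted p = 2.1e-06). ADH1, the fermentative enzyme, stood at 9087 and 8373 CPM in glucose and 7495 and 7939 CPM in galactose (-0.18 ± 0.18, adjusted p = 0.431), and it passed upward under cyclic loess. ALD4, the mitochondrial aldehyde dehydrogenase, rose from 68.8 and 58.5 to 506 and 605 CPM (3.13 ± 0.15, adjusted p = 3.4e-07). ALD5, another mitochondrial form, fell from 1289.9 and 1329 to 262 and 399.9 CPM (-1.98 ± 0.23, adjusted p = 1.3e-04), and the cytosolic ALD6 (-0.09 ± 0.14, adjusted p = 0.639) did not pass. Of the acetyl-CoA synthetase genes, ACS1 rose by 1.40 ± 0.19, while ACS2 (-0.22 ± 0.16, adjusted p = 0.267) did not pass and had a positive value that passed under cyclic loess. GPD1, a glycerol-3-phosphate dehydrogenase gene, rose by 1.82 ± 0.28, and ADH5 (-1.89 ± 0.46) and ADH3 (-1.14 ± 0.21) fell. In this list of 20, 8 were higher (40.0%) and 5 lower (25.0%), against 24.3 and 20.5% of all tested genes, with a median of 0.21. Fewer were higher without glucose A or without glucose B.

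Genes for lactate, glycerol and the glyoxylate cycle rose widely. JEN1, which encodes the lactate and pyruvate permease, went from 5.17 and 7.15 to 757 and 685 CPM. It rose 116-fold (6.86 ± 0.27, adjusted p = 8.6e-08), a change between those of GAL3 and GAL7. CYB2, an L-lactate dehydrogenase gene, rose from 5.43 and 5.09 to 312 and 183 CPM (5.56 ± 0.30, adjusted p = 7.9e-07). GUT2, the mitochondrial glycerol-3-phosphate dehydrogenase, rose from 10.9 and 10.8 to 121 and 105 CPM (3.38 ± 0.13, adjusted p = 8.6e-08). For all 3 the groups stood far apart, with galactose A above galactose B. AGX1, alanine-glyoxylate aminotransferase, was at 285 and 113 CPM in galactose A and B after 12.6 and 15.9 in glucose (3.80 ± 0.37, adjusted p = 4.5e-05), a wide gap between replicates.

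Enzymes of gluconeogenesis and the glyoxylate cycle itself rose from low levels. FBP1, fructose-1,6-bisphosphatase, rose from 1.02 and 1.09 to 15.7 and 7.64 CPM (3.46 ± 0.46, adjusted p = 3.2e-04), and PCK1, phosphoenolpyruvate carboxykinase, stood at 2.75 and 2.35 CPM in glucose and 5.53 and 4.44 CPM in galactose (0.97 ± 0.28, adjusted p = 0.0176). PCK1 no longer passed under cyclic loess (adjusted p = 0.210), without glucose A (0.0757), without glucose B (0.153) and without galactose A (0.0926). ICL1, isocitrate lyase, rose from 23.9 and 24.8 to 83.0 and 71.0 CPM (1.66 ± 0.16, adjusted p = 4.7e-05), and MLS1, malate synthase, from 2.49 and 2.86 to 14.2 and 8.10 CPM (2.06 ± 0.34, adjusted p = 0.00103). The transporter gene SFC1 rose by 3.43 ± 0.44. In this list 17 of 24 were higher and 0 lower, against 24.3 and 20.5% of all tested genes, with a median of 1.98. CIT2, MDH2, MDH3, PYC1 and PYC2 were among the 7 that did not pass. PYC1 passed upward with library totals alone (1.21), under cyclic loess (1.28) and with at least 100 counts in 2 libraries (0.93). It also passed with a replicate block (0.85) and with only the 4 wild-type libraries (0.93). MDH3 passed upward under cyclic loess (0.48), and PYC2 downward by DESeq2's Wald test (-0.50) and with only the 4 wild-type libraries (-0.43). DESeq2's Wald test called 2 of the list lower.

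Respiratory genes rose almost without exception. Of 39 nuclear genes of the respiratory chain and ATP synthase, 38 were higher and 37 of them by at least 2-fold, against 24.3 and 10.4% of all tested genes. COX5B was the 1 that fell. In the cytochrome bc1 complex 9 of 9 rose, among them QCR10 (2.81 ± 0.32) and COR1, which went from 159 and 164 to 673 and 543 CPM (1.91 ± 0.14, adjusted p = 8.3e-06). In ATP synthase 13 of 13 subunit genes rose, from 0.87 upward, with ATP1 at 1.99 ± 0.21 and ATP2 at 2.24 ± 0.13. In cytochrome c oxidase 8 of 9 rose, and the isoforms of one subunit were exchanged. COX5A, the subunit form of aerobic growth, went from 53.3 and 53.7 to 418 and 267 CPM (2.68 ± 0.21, adjusted p = 1.0e-05), and COX5B, the hypoxic form, from 70.5 and 80.2 to 34.0 and 33.9 CPM (-1.15 ± 0.22, adjusted p = 0.00245). COX5B therefore made up 52.9 and 55.9% of the pair in glucose and 6.47 and 9.74% in galactose.

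Both cytochrome c genes rose, CYC1 from 28.9 and 20.7 to 176 and 116 CPM (2.56 ± 0.34, adjusted p = 3.1e-04) and CYC7 from 9.90 and 9.61 to 43.3 and 25.7 CPM (1.82 ± 0.26, adjusted p = 4.8e-04). NDE1, the external NADH dehydrogenase, rose from 179.7 and 153 to 969 and 862 CPM (2.46 ± 0.16, adjusted p = 3.4e-06), and INH1 (2.64 ± 0.29) and STF1 (2.84 ± 0.39), inhibitors of ATP hydrolysis, did too. The median of the list was 1.77, and 1.60 without galactose A. Its summed counts took 0.245 and 0.244% of gene counts in glucose A and B and 1.04 and 0.812% in galactose A and B. The 8 genes on the mitochondrial genome have no rows in these tables and were not analysed here.

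In the tricarboxylic acid (TCA) cycle 15 of 21 genes were higher and 1 lower (2 without galactose B), with a median of 1.25. Of all tested genes 24.3% were higher and 20.5% lower. All 4 subunit genes of succinate dehydrogenase rose. SDH1, the catalytic subunit, went from 20.5 and 18.3 to 193 and 140.1 CPM (3.10 ± 0.18, adjusted p = 1.1e-06), and SDH2, the iron-sulfur subunit, from 13.7 and 12.7 to 106 and 66.2 CPM (2.70 ± 0.21, adjusted p = 1.0e-05). CIT1, mitochondrial citrate synthase, rose from 512 and 469 to 1778 and 1621 CPM (1.79 ± 0.19, adjusted p = 7.9e-05), and MDH1, mitochondrial malate dehydrogenase, by 1.58 ± 0.14. KGD2 (1.78 ± 0.14), a subunit of ketoglutarate dehydrogenase, and CIT3 (2.39 ± 0.20) were up as well. ACO1 (0.21 ± 0.15, adjusted p = 0.258), an aconitase gene, did not pass, but did so upward with library totals alone (0.51) and under cyclic loess (0.83). Of the 5 pyruvate dehydrogenase genes 1 was higher, a call that did not hold without glucose A or without glucose B. PDB1 (0.31 ± 0.13, adjusted p = 0.0776) and LAT1 (0.14 ± 0.18, adjusted p = 0.545) did not pass. PDB1 passed upward with library totals alone (0.61), under cyclic loess (0.39) and with a replicate block (0.32), and LAT1 under cyclic loess (0.54).

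The machinery that translates mitochondrial messages moved less. Of 69 mitochondrial ribosomal protein genes, 19 (27.5%) were higher and 0 lower, with a median of 0.26, and 27.5% is close to the 24.3% of all tested genes. The number higher was 8 without glucose A, 6 without glucose B and 47 with library totals alone. MRP4 (1.29 ± 0.17), MRP20 (1.00 ± 0.17) and MRPL35 (0.93 ± 0.14) passed in all alternatives, though MRP4 shares 2 bp with YHL005C. MRP51 (0.06 ± 0.13, adjusted p = 0.738) and MNP1 (-0.07 ± 0.17, adjusted p = 0.738) are examples that did not pass. MRP51 passed upward with library totals alone (0.35) and under cyclic loess (0.37).

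Genes of storage carbohydrates rose with 1 exception. Of 20 trehalose and glycogen genes, 19 were higher and 0 lower, against 24.3 and 20.5% of all tested genes, with a median of 1.30. GPH1, glycogen phosphorylase, stood at 35.3 and 38.7 CPM in glucose and 531 and 485 CPM in galactose (3.78 ± 0.15, adjusted p = 8.6e-08). GDB1, the debranching enzyme, went from 36.4 and 35.9 to 378 and 312 CPM (3.25 ± 0.19, adjusted p = 1.0e-06), and GLC3, the branching enzyme, from 54.3 and 47.8 to 483 and 356 CPM (3.04 ± 0.16, adjusted p = 7.3e-07). Genes that build glycogen and genes that break it down thus rose side by side, with galactose A the higher replicate in each case. The synthase genes GSY1 (2.83 ± 0.27) and GSY2 (1.49 ± 0.15) were higher, and GAC1 (3.97 ± 0.45), which targets a phosphatase to the synthase, rose from under 1 CPM. In trehalose synthesis, TSL1 went from 62.2 and 47.1 to 305 and 216 CPM (2.26 ± 0.26, adjusted p = 1.3e-04), TPS2 rose by 1.61 ± 0.13 and TPS1 by 0.73 ± 0.15. TPS1 no longer passed without glucose B (adjusted p = 0.0769). UGP1, whose product makes UDP-glucose, was the 1 member that did not pass (0.14 ± 0.12, adjusted p = 0.370). It passed upward with library totals alone (0.43) and under cyclic loess (0.45).

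General stress genes rose with them. Of 59 genes that the stress factors Msn2 and Msn4 are known to drive or that mark stressed and slow-growing cells, 51 were higher and 0 lower, with a median of 1.40. Of all tested genes 24.3% were higher and 20.5% lower. The list had a median level of 4.17 log2 CPM. From 2 to 5 log2 CPM, 644 of 1484 tested genes were higher and 79 lower, with a median of 0.41. HSP12, a small membrane stress protein gene, went from 9.45 and 10.9 to 165 and 147 CPM (3.94 ± 0.20, adjusted p = 4.9e-07), and HSP26, a small heat shock protein gene, from 19.6 and 18.3 to 151 and 221 CPM (3.29 ± 0.25, adjusted p = 9.4e-06). TMA10, whose product binds ribosomes, rose from 3.83 and 3.15 to 199.8 and 269 CPM, 67.2-fold (6.07 ± 0.20, adjusted p = 5.6e-08). Groups were far apart for all 3. DDR2 (4.87 ± 0.53), SPG4 (3.56 ± 0.41) and YNL194C (3.59 ± 0.56) rose from under 1 CPM. MSN4 itself rose from 3.00 and 3.38 to 7.12 and 7.02 CPM (1.14 ± 0.20, adjusted p = 0.00125), and MSN2 by 0.94 ± 0.26 (adjusted p = 0.0156), which no longer passed under cyclic loess (adjusted p = 0.157), without glucose A (0.0646), without glucose B (0.145) and without galactose A (0.0911). In the pentose phosphate pathway, the second isoforms TKL2 (3.13 ± 0.37), SOL4 (2.49 ± 0.27) and GND2 (2.15 ± 0.22) rose, and their main isoforms TKL1 (0.38 ± 0.16), SOL3 (0.01 ± 0.15) and GND1 (0.15 ± 0.15) did not pass. TKL1 and GND1 passed upward with library totals alone (0.66 and 0.44) and under cyclic loess (0.81 and 0.80), and TKL1 also without galactose A (0.55).

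Chaperone genes were less uniform. The inducible chaperone genes SSA3 (0.00 ± 0.13, adjusted p = 0.988) and SSA4 (0.33 ± 0.15, adjusted p = 0.0972) and the chaperone gene HSP82 (0.03 ± 0.27, adjusted p = 0.929) did not pass. SSA4 passed upward with library totals alone (0.64), under cyclic loess (0.48) and without galactose B (0.49), and HSP82 under cyclic loess (0.70). Of 27 cytosolic and mitochondrial chaperone genes, 7 were higher (25.9%) and 4 lower (14.8%), shares near or below the 24.3 and 20.5% of all tested genes, with a median of 0.03. The mitochondrial SSC1 (1.22 ± 0.12) and the cytosolic SSA1 (0.86 ± 0.14) rose, while SSB1, a chaperone on ribosomes, fell by 0.99 ± 0.20, a call lost under cyclic loess. HSC82 fell by 0.77 ± 0.20 (adjusted p = 0.0102), was positive at 0.07 under cyclic loess and did not pass without galactose A. The counts moved with the setting, to 3 higher without glucose B, to 9 lower without galactose B and to 1 lower under cyclic loess.

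Of 30 genes against oxidative stress, 12 were higher (40.0%) and 4 lower (13.3%), with a median of 0.55. The shares of all tested genes were 24.3 and 20.5%. OYE3, an NADPH oxidoreductase gene, stood at 8.04 and 7.55 CPM in glucose and 379 and 107 CPM in galactose (4.96 ± 0.51, adjusted p = 6.0e-05), with galactose A well above galactose B. The mitochondrial members SOD2 (2.26 ± 0.22), PRX1 (2.22 ± 0.23) and MCR1 (2.22 ± 0.17) rose, and the cytosolic SOD1 (0.14 ± 0.23, adjusted p = 0.638) and GLR1 (-0.11 ± 0.14, adjusted p = 0.537) did not pass. The number higher was 7 without glucose B, and the number lower 1 under cyclic loess.

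Fatty acid breakdown rose while the peroxisome's own assembly genes moved little. Of 14 genes of fatty acid oxidation and carnitine transfer, 13 were higher, with a median of 1.63, and of 15 peroxin genes 2 were higher, with a median of 0.06. Of all tested genes 24.3% were higher and 20.5% lower. POX1, acyl-CoA oxidase, went from 3.77 and 3.03 to 49.1 and 53.1 CPM (3.91 ± 0.22, adjusted p = 1.0e-06). POT1, the thiolase gene, went from 0.958 and 1.95 to 16.5 and 13.7 CPM (3.36 ± 0.37, adjusted p = 1.0e-04), and FOX2, the multifunctional enzyme, from 5.68 and 6.35 to 41.8 and 28.4 CPM (2.54 ± 0.22, adjusted p = 1.8e-05). The galactose libraries were above the glucose libraries for all of them. CRC1 (2.15 ± 0.15), a carnitine carrier gene, and FAA2 (2.10 ± 0.15), an acyl-CoA synthetase gene that overlaps BUD25 by 160 bp, were higher, and PEX5 (-0.07 ± 0.12, adjusted p = 0.693) did not pass. Over the whole list of 36, 20 were higher and 0 lower, with a median of 0.71.

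In lipid synthesis, OLE1, the fatty acid desaturase gene, rose from 1569 and 1719 to 3061 and 5059.5 CPM (1.30 ± 0.25, adjusted p = 0.00232). Its activator genes MGA2 (1.06 ± 0.21) and SPT23 (0.96 ± 0.15) were higher too. ACC1, acetyl-CoA carboxylase, rose by 0.98 ± 0.22 (adjusted p = 0.00508) but no longer passed without glucose A (adjusted p = 0.0569). FAS2, a fatty acid synthase subunit, had 0.12 ± 0.22, adjusted p = 0.674, but rose by 0.99 under cyclic loess (adjusted p = 8.4e-04). Of 26 genes of fatty acid and phospholipid synthesis, 11 were higher (42.3%) and 7 lower (26.9%), against 24.3 and 20.5% of all tested genes, with a median of 0.03, and 4 were higher without glucose A, while 2 were lower with library totals alone. In ergosterol synthesis 6 of 26 were higher (23.1%) and 5 lower (19.2%), close to those shares of all tested genes, with a median of -0.03. The ergosterol list had a median level of 8.41 log2 CPM. Above 8 log2 CPM, 498 of 945 tested genes were lower and 92 higher. ERG5 (0.90 ± 0.16) and ERG13 (0.71 ± 0.12) rose in all alternatives, and without glucose A the counts were 2 and 0. Of 17 anaerobic and hypoxic genes, 3 were higher and 3 lower (17.6% each), both below the shares of all tested genes, and 1 was higher under cyclic loess and without glucose A, glucose B or galactose A. ANB1, the hypoxic form of a translation factor, fell from 8.30 and 10.4 to 1.13 and 1.13 CPM (-3.03 ± 0.33, adjusted p = 9.0e-05), and AAC3, the anaerobic ADP/ATP carrier, from 47.2 and 50.8 to 9.11 and 10.8 CPM (-2.30 ± 0.17, adjusted p = 5.8e-06).

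**Figure D4:**
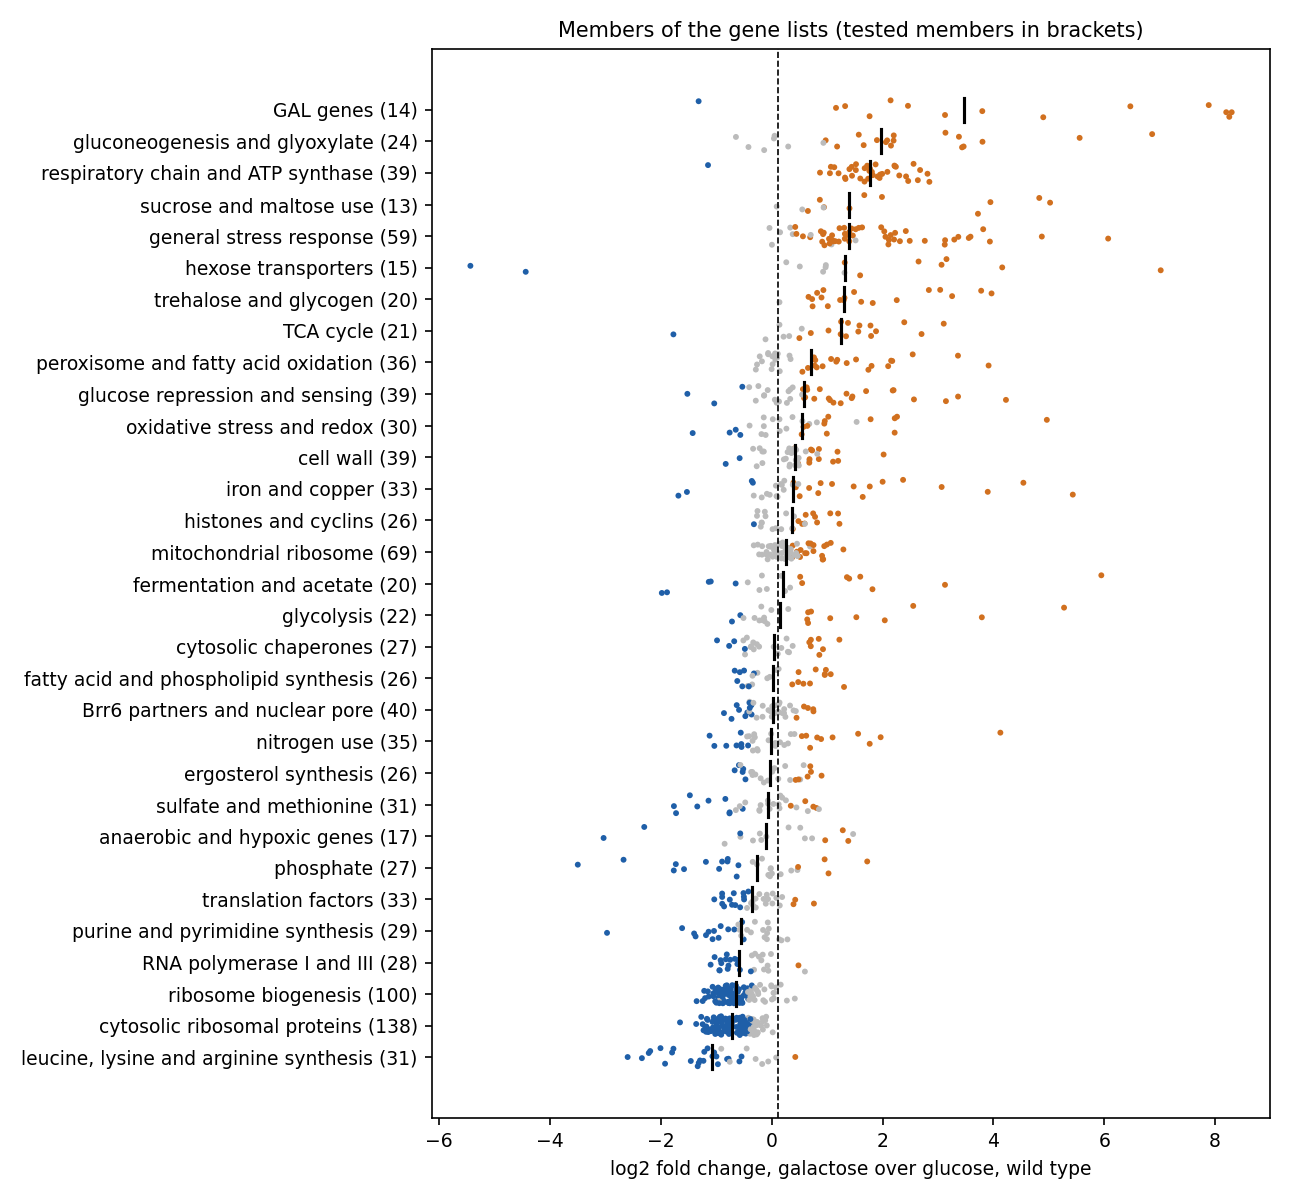
Log2 fold change (galactose over glucose, wild type) of every tested member of the gene lists, 1 point per gene, in orange where higher, blue where lower and grey where it did not pass. Black bars are list medians and the dashed line is the median of all tested genes, 0.10. The GAL genes lie farthest to the right (median 3.46), respiratory genes are nearly all orange, and the lists of ribosomal proteins and of leucine, lysine and arginine synthesis lie to the left.

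Genes for making ribosomes were lower. Of 138 cytosolic ribosomal protein genes, 109 were lower and 0 higher, against 20.5 and 24.3% of all tested genes, with a median of -0.72. Together they took 14.0 and 14.4% of gene counts in glucose A and B and 7.68 and 9.72% in galactose A and B. The list had a median level of 8.34 log2 CPM. Above 8 log2 CPM, 498 of 945 tested genes were lower and 92 higher, with a median of -0.45. RPL3 stood at 16575 and 17541 CPM in glucose and 5564 and 8558 CPM in galactose (-1.27 ± 0.23, adjusted p = 0.00167), a call lost under cyclic loess (adjusted p = 0.0619). RPS2 went from 7606 and 8163 to 2423 and 3706 CPM (-1.36 ± 0.22, adjusted p = 9.2e-04) and RPL9A from 2802 and 3061 to 727 and 1134 CPM (-1.66 ± 0.22, adjusted p = 3.1e-04). Galactose A was the lower of the pair for all 3, and neither library reached the glucose range. The median was -0.43 with library totals alone, with 72 lower, and also -0.43 under cyclic loess, with 70 lower. RPL16B (-0.19 ± 0.15, adjusted p = 0.315) and RPS24A (-0.16 ± 0.14, adjusted p = 0.379) did not pass. Many ribosomal protein genes come in near-identical pairs, whose single members are uncertain since reads that matched both were not counted.

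Genes of ribosome assembly were lower too. Among all tested genes, 20.5% were lower and 24.3% higher. Of 100 ribosome biogenesis genes, 72 were lower and 0 higher, with a median of -0.64, and 44 were lower without glucose B. UTP23 went from 214 and 250.0 to 68.4 and 113 CPM (-1.36 ± 0.22, adjusted p = 9.1e-04), DBP7 from 491 and 589 to 194 and 261 CPM (-1.25 ± 0.18, adjusted p = 5.2e-04) and NOP7 from 1458 and 1549 to 593 and 759 CPM (-1.15 ± 0.20, adjusted p = 0.00118). Here, too, galactose A was the lower replicate. Library totals alone and cyclic loess left 44 and 45 lower. In RNA polymerases I and III 16 of 28 genes were lower and 1 higher, against 20.5 and 24.3% of all tested genes, with a median of -0.59. RPA34 (-1.10 ± 0.18) and RPC40 (-1.03 ± 0.17) fell, the latter shared by both enzymes. The 1 that rose was MAF1 (0.48 ± 0.13), the repressor of RNA polymerase III, which no longer passed without glucose A (adjusted p = 0.117) and without glucose B (0.119).

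Translation factors were less uniform, with 14 of 33 lower (42.4%) and 3 higher (9.09%) and a median of -0.35. Of all tested genes 20.5% were lower and 24.3% higher. The list had a median level of 9.18 log2 CPM. Above 8 log2 CPM, 498 of 945 tested genes were lower and 92 higher, with a median of -0.45. TIF5 (-0.90 ± 0.16) and TIF35 (-0.90 ± 0.17), both initiation factor genes, fell in all alternatives. YEF3, which encodes a fungal elongation factor, fell by 0.89 ± 0.24 (adjusted p = 0.0127). It no longer passed under cyclic loess (adjusted p = 0.482), without glucose B (0.0568) and without galactose A (0.0646), and its value under cyclic loess was positive at 0.12. With that scaling 2 members were lower in place of 14, and 6 were higher, so the balance of the list rests on the scaling. SUP35 (-0.34 ± 0.14, adjusted p = 0.0775) and TEF2 (-0.45 ± 0.18, adjusted p = 0.0609) did not pass. Both passed downward with DESeq2 size factors (-0.42 and -0.52) and by DESeq2's Wald test (-0.42 and -0.52).

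Synthesis of leucine, lysine and arginine fell. Of 31 genes, 23 were lower and 1 higher, against 20.5 and 24.3% of all tested genes. The median was -1.07, the lowest of all lists examined. LEU1, isopropylmalate isomerase, stood at 6341 and 6906 CPM in glucose A and B and at 1131 and 1053 CPM in galactose A and B (-2.60 ± 0.19, adjusted p = 6.6e-06). LYS9, saccharopine dehydrogenase, went from 4739 and 4594 to 589.9 and 1249 CPM (-2.34 ± 0.31, adjusted p = 2.8e-04), and ARG7, ornithine acetyltransferase, from 879.6 and 968 to 187 and 210.2 CPM (-2.22 ± 0.35, adjusted p = 7.5e-04). None of these overlapped between groups, nor did 75.9% of all tested genes, and galactose A lay well below galactose B for LYS9. By branch, 9 of 11 genes for leucine, isoleucine and valine were lower, 6 of 7 for lysine and 7 of 10 for arginine. BAT2 (-2.19 ± 0.28), a transaminase gene, and ARG4 (-2.01 ± 0.35) were among them. The 1 that rose was GCN4, the activator of these genes (0.42 ± 0.15, adjusted p = 0.0414). It no longer passed with DESeq2 size factors (adjusted p = 0.0940), by DESeq2's Wald test (0.0988), with only the 4 wild-type libraries (0.0626), without glucose A (0.455), without glucose B (0.0819) and without galactose B (0.277). LEU2 (-1.77 ± 0.19) and LYS2 (-1.22 ± 0.23) fell as well and are marker loci of the strain. The list took 2.86% of gene counts in both glucose libraries and 1.01 and 1.26% in galactose A and B.

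Other genes near these pathways were among the 15 largest falls, ranked over called genes of at least 5 CPM whose groups did not overlap. OAC1, the mitochondrial oxaloacetate carrier, went from 1377 and 1525 to 208 and 303 CPM (-2.51 ± 0.29, adjusted p = 1.3e-04). ARO3, the first enzyme of aromatic amino acid synthesis, went from 925 and 1040.4 to 206 and 208 CPM (-2.25 ± 0.36, adjusted p = 8.9e-04). IRC7 (-2.54 ± 0.30) and the transporter gene AQR1 (-2.68 ± 0.42) fell likewise. In sulfate and methionine metabolism 9 of 31 were lower (29.0%) and 4 higher (12.9%), against 20.5 and 24.3% of all tested genes, with a median of -0.07. The number higher was 2 without glucose A, 0 without glucose B and 9 with library totals alone. HOM2 (-1.77 ± 0.29), MET6 (-1.34 ± 0.19), the methionine synthase, and SAM1 (-1.73 ± 0.18) fell. CYS4 (0.12 ± 0.13, adjusted p = 0.476) did not pass, but did so upward with library totals alone (0.42) and under cyclic loess (0.45). The sign of the small median of the list was positive at 0.24 with library totals alone.

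In purine and pyrimidine synthesis 14 of 29 were lower (48.3%) and 0 higher, against 20.5 and 24.3% of all tested genes, with a median of -0.55. The list had a median level of 8.62 log2 CPM. Above 8 log2 CPM, 498 of 945 tested genes were lower and 92 higher, with a median of -0.45. IMD2, an IMP dehydrogenase gene of guanine nucleotide synthesis, went from 485 and 452 to 72.1 and 47.1 CPM (-2.97 ± 0.34, adjusted p = 1.3e-04), and its relative IMD4 from 954 and 1101 to 298 and 371 CPM (-1.62 ± 0.18, adjusted p = 1.0e-04). URA7, CTP synthetase, went from 982 and 1095 to 314 and 473 CPM (-1.40 ± 0.21, adjusted p = 6.9e-04). URA2 (0.28 ± 0.19, adjusted p = 0.244) and ADE6 (-0.45 ± 0.17, adjusted p = 0.0562) did not pass. URA2 passed upward with library totals alone (0.58) and under cyclic loess (0.91). ADE6 passed downward with DESeq2 size factors (-0.52), by DESeq2's Wald test (-0.52) and with only the 4 wild-type libraries (-0.45). Cyclic loess left 7 lower, and 9 were lower without galactose A.

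Phosphate genes were split. PHO12, an acid phosphatase gene, stood at 119 and 113 CPM in glucose and 7.98 and 12.6 CPM in galactose, a 11.3-fold fall (-3.50 ± 0.20, adjusted p = 1.0e-06). PHO11, nearly identical to it, went from 36.6 and 35.9 to 4.62 and 6.76 CPM (-2.67 ± 0.19, adjusted p = 5.8e-06), and the single values of the pair are uncertain. VTC3, of the polyphosphate polymerase, fell from 2930.4 and 3145 to 901 and 929 CPM (-1.73 ± 0.14, adjusted p = 1.3e-05), and SPL2, a regulator of low-affinity uptake, from 18.1 and 21.5 to 6.94 and 6.24 CPM (-1.58 ± 0.21, adjusted p = 3.3e-04). PHO89, the sodium-phosphate symporter, rose from 47.8 and 44.6 to 119 and 186 CPM (1.72 ± 0.29, adjusted p = 0.00109). PHO84, the high-affinity transporter, fell by 0.63 ± 0.21 (adjusted p = 0.0339) but no longer passed with library totals alone (adjusted p = 0.189), without glucose A (0.0591), without glucose B (0.150) and without galactose A (0.169). PHO5, the main acid phosphatase, stood at 39.4 and 44.1 CPM in glucose and 41.1 and 40.5 CPM in galactose (-0.03 ± 0.13, adjusted p = 0.857), and passed downward under cyclic loess. In this list 12 of 27 were lower (44.4%) and 4 higher (14.8%), against 20.5 and 24.3% of all tested genes. With library totals alone 7 were higher. The median was -0.27, and positive at 0.03 with library totals alone.

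Several iron genes rose strongly. FIT3 and FIT2, cell wall mannoproteins that hold siderophores, went from 3.06 and 1.89 to 75.5 and 137 CPM (5.43 ± 0.43, adjusted p = 1.0e-05) and from 9.58 and 7.10 to 122 and 266 CPM (4.54 ± 0.38, adjusted p = 1.6e-05). FRE5, a putative ferric reductase gene, went from 27.6 and 20.5 to 298 and 417 CPM (3.90 ± 0.32, adjusted p = 1.5e-05). TIS11, which degrades messages of iron-using proteins, rose by 2.37 ± 0.30, and galactose B was the higher replicate for all 4 genes. HMX1, heme oxygenase, rose by 2.00 ± 0.23 and FET3, the ferroxidase of reductive uptake, by 1.09 ± 0.25, the latter lost without glucose B (adjusted p = 0.0855). FTR1, the permease partner of Fet3 (0.10 ± 0.21, adjusted p = 0.713), and SIT1, a siderophore transporter gene (0.48 ± 0.29, adjusted p = 0.195), did not pass. SIT1 passed upward with library totals alone (0.76) and under cyclic loess (0.84). Of 33 genes of iron and copper, 16 were higher (48.5%) and 4 lower (12.1%), against 24.3 and 20.5% of all tested genes, with a median of 0.39. Without glucose A 11 were higher and 2 lower, and without glucose B 10 were higher and 2 lower.

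Of 35 nitrogen genes, 10 were higher (28.6%) and 8 lower (22.9%), close to the 24.3 and 20.5% of all tested genes, with a median of -0.01. PUT4, the proline permease, rose from 9.19 and 8.53 to 213 and 95.9 CPM (4.13 ± 0.36, adjusted p = 2.0e-05), with galactose A well above galactose B. The glutamate dehydrogenase genes diverged, since GDH3 rose by 1.96 ± 0.17 and GDH1 (-0.45 ± 0.20, adjusted p = 0.0929) did not pass. By DESeq2's Wald test GDH1 passed downward (-0.52). GLN1, glutamine synthetase, fell by 1.12 ± 0.16. Without glucose B the counts were 3 and 3. In cell cycle genes and histones 11 of 26 were higher (42.3%) and 1 lower (3.85%), against the same shares of all tested genes. CLN1 (1.22 ± 0.18), a cyclin gene, SIC1 (1.06 ± 0.14), a cyclin kinase inhibitor gene, and RNR1 (0.82 ± 0.17) rose. The core histone genes HHT1 (-0.11 ± 0.16, adjusted p = 0.594) and HHT2 (0.01 ± 0.17, adjusted p = 0.954) did not pass. HHT2 passed upward under cyclic loess (0.43). The number higher was 5 without glucose A. Of 39 cell wall genes, 12 were higher (30.8%, against 24.3% of all tested genes) and 2 lower, while 5 were higher without glucose A and 26 with library totals alone. GSC2, a glucan synthase gene of stress and sporulation, rose from 323 and 352 to 1415 and 1321 CPM (2.02 ± 0.17, adjusted p = 1.5e-05), while the other synthase gene FKS1 (-0.17 ± 0.19, adjusted p = 0.482) did not pass, and its value under cyclic loess was positive and passed.

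The nuclear envelope was looked at since the study concerns Brr6. Of 40 genes of Brr6, its partners and the nuclear pore, 10 were lower (25.0%) and 5 higher (12.5%), against 20.5 and 24.3% of all tested genes, with a median of 0.01, and none changed by 2-fold. GLE2 (-0.86 ± 0.13) and NUP49 (-0.73 ± 0.15), pore components, fell. BRR6 stood at 28.0 and 29.5 CPM in glucose and 24.4 and 19.1 CPM in galactose (-0.40 ± 0.16, adjusted p = 0.0659), and it passed downward in 4 alternatives. BRL1, its paralog, fell by 0.40 ± 0.13 (adjusted p = 0.0285) but no longer passed with library totals alone (adjusted p = 0.456), without glucose A (0.0600), without glucose B (0.117) and without galactose A (0.163). APQ12, a further membrane partner, had -0.17 ± 0.28, adjusted p = 0.656, and passed downward under cyclic loess at -0.73 (adjusted p = 0.0313). Without glucose A the counts of the list were 0 higher and 7 lower, and with library totals alone 18 higher and 2 lower.

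A further 5182 tested genes are on none of these lists. Of them 1178 were higher (22.7%) and 952 lower (18.4%), close to the 24.3 and 20.5% of all tested genes, with a median of 0.12. Of the 15 largest rises among called genes of at least 5 CPM whose groups did not overlap, some belong to no list. One is RGI2, a gene of respiratory growth, which went from 0.575 and 0.515 to 30.8 and 77.8 CPM (6.62 ± 0.55, adjusted p = 1.5e-05). Another was YFR052C-A, a feature with no entry in the gene table used, which went from 3.89 and 2.86 to 105 and 129 CPM (5.12 ± 0.18, adjusted p = 6.3e-08).

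Strain yDBK168 (brr6-1) was put through the same media, and its own libraries give a second galactose effect. There 551 genes were higher (8.75%) and 457 lower (7.26%), fewer than in wild type. Higher in both strains were 414 genes, 27.0% of those of wild type and 75.1% of those of brr6-1, and lower in both were 322, 25.0 and 70.5%. The test of the difference between the strains passed for 352 genes (5.59%), of which 248 (3.94%) had a lower and 104 (1.65%) a higher effect in brr6-1. The number moved with the library left out. It was far lower without glucose A or without glucose B, lower without galactose A and higher without galactose B. Each of these fits leaves a group with 1 library, and the reason for the change was not tested.

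The wild-type rise of storage and stress genes differed from that of brr6-1. The difference passed below 0 for 14 of 20 trehalose and glycogen genes, for 19 of 59 stress genes and for 9 of 22 glycolytic genes, against 3.94% of all tested genes. The medians of these lists were 1.30, 1.40 and 0.14 in wild type and 0.20, 0.29 and -0.60 in brr6-1. Without glucose A the counts were 5, 5 and 1, without glucose B 1, 1 and 0, and without galactose B 15, 32 and 8, while the median difference of the storage genes lay between -1.30 and -1.08 without any one of the wild-type libraries and that of the stress genes between -1.21 and -0.76.

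HSP12 rose by 3.94 ± 0.20 in wild type, as given above, and by 0.97 ± 0.19 in brr6-1, where it stood at 11.6 and 17.7 CPM in glucose A and B and at 30.4 and 27.1 CPM in galactose A and B. The difference was -2.97 ± 0.27 (adjusted p = 0.00146). GPH1 stood at 66.1 and 70.0 CPM in brr6-1 glucose and 199 and 164 CPM in brr6-1 galactose (1.41 ± 0.13), a difference of -2.36 ± 0.19 (adjusted p = 0.00106). For both genes the brr6-1 glucose libraries lay above the wild-type glucose libraries, and the difference passed without any one of the 4 wild-type libraries. TDH1 stood at 30.4 and 51.4 CPM in brr6-1 glucose and 46.4 and 43.5 CPM in brr6-1 galactose, a difference of -3.66 ± 0.36 (adjusted p = 0.00181) that missed the threshold without glucose B (0.0518).

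Of the 14 galactose genes the difference passed for 3, 2 below and 1 above 0. For GAL1 the effects were 8.20 ± 0.42 in wild type and 7.39 ± 0.41 in brr6-1, a difference of -0.81 ± 0.44 (adjusted p = 0.288) that does not show that they are alike. The rise of GAL3 was lower in brr6-1 by 1.44 ± 0.22 (adjusted p = 0.00755) and that of PGM2 by 1.75 ± 0.27 (adjusted p = 0.00905), and both missed the threshold without glucose A or without glucose B (0.0807 and 0.0851 for GAL3, 0.0792 and 0.0982 for PGM2). The median of the respiratory list was 1.77 in wild type and 2.05 in brr6-1, and the difference passed for 6 of its 39 genes, 4 of them above 0, but for 0 without glucose A or without glucose B. Ribosome biogenesis, with 72 of 100 genes lower in wild type, had 0 lower in brr6-1, and the difference passed above 0 for 10 of these genes, for 52 without galactose B and for 0 without any other one of the wild-type libraries.

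**Figure D5:**
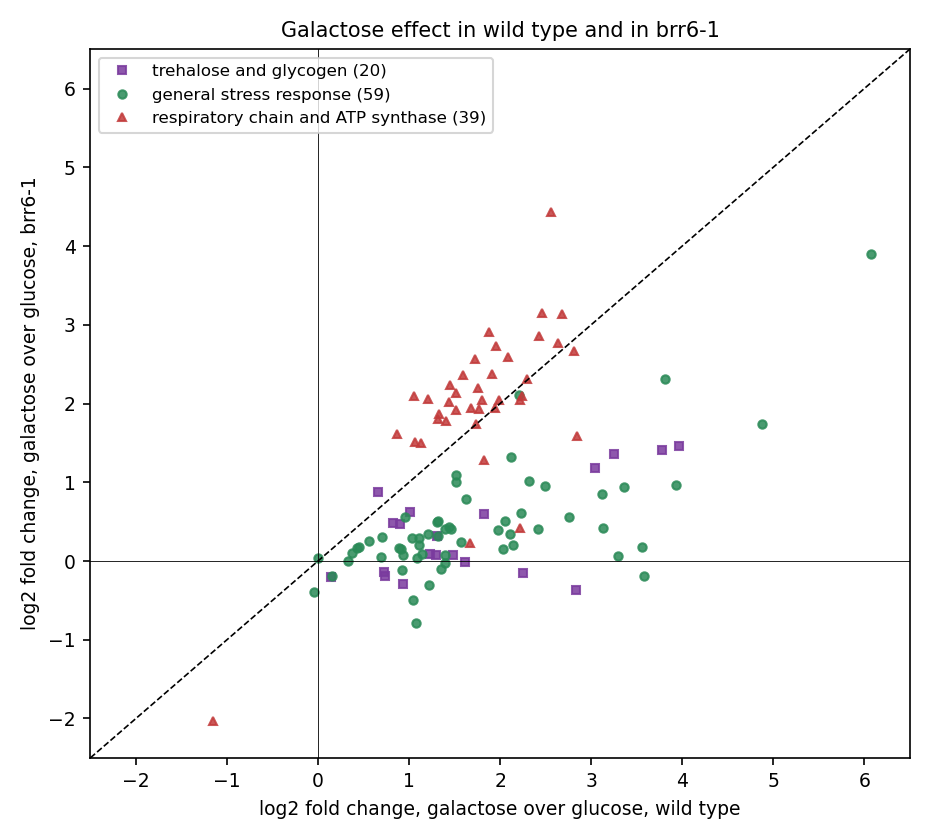
Galactose effect (log2 fold change, galactose over glucose) in wild type on the x axis and in brr6-1 on the y axis for the genes of 3 lists, 1 point per gene. The dashed line marks equal effects. Stress genes (circles) and trehalose and glycogen genes (squares) lie mostly below it, with medians of 1.40 and 1.30 in wild type against 0.29 and 0.20 in brr6-1, and respiratory genes (triangles) lie near or above it.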

How the data were processed

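Strand-specific RNA-seq libraries (ribosomal RNA depleted, NEBNext Ultra Directional, 50-base single-end reads, per the labels' protocols) came from 12 ml cultures, with 2 biological replicates (A and B) per group. The deposited tables hold raw counts per gene that the authors made with HTSeq after cutadapt and TopHat on build R64, per the submitters' processing notes. Tool versions and the strand setting of the counting are not stated there. Reads that matched several places made up 53.5 to 57.4% of all lines of a wild-type library and were not counted to genes, so near-identical genes are undercounted, and at most 0.0890% were ambiguous. Symbols came from a RefSeq gene table of R64, which matched 5898 of 6572 rows.

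Counts were scaled by TMM, filtered (filterByExpr, minimum count 10, 6297 genes kept, 275 not) and fitted by edgeR 4.0.16 (quasi-likelihood, R 4.3.3) to all 8 RNA libraries in 4 groups with 4 residual degrees of freedom. The threshold was a Benjamini-Hochberg adjusted p of 0.05, and the standard error is the log2 fold change divided by the square root of F. Alternatives were other scalings (DESeq2 size factors, library totals, cyclic loess with limma 3.58.1), filters, DESeq2 1.42.0's Wald test, robust fitting, a replicate block, only the 4 wild-type libraries and each of them left out. A group left with 1 library is then assumed to vary like the others. On simulated counts for 6245 genes, 200 had known changes in the wild-type comparison. Of these, 29.9% of 67 genes changed 1.5-fold, 67.2% of 67 changed 2-fold and 90.9% of 66 changed 4-fold were called. Of the calls, 6.02% were false. Far more genes passed in the data, so these rates need not hold there.

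The groups and gene lists were chosen with earlier results of these data known. Genes could be named by a rule: all members of the galactose, repression, hexose transporter and marker lists, up to 6 called members with the largest change and up to 3 abundant uncalled members of other lists, the 15 largest rises and falls, the most abundant genes, the 10 largest differences between strains and listed isoenzyme pairs. The rule ranked rises and falls only among called genes with a wild-type mean of at least 5 CPM and no overlap between groups. PCK1, ICL1, MLS1, ADH3, COR1, ATP1, ATP2, TPS1, TPS2, HSP26, MSN2, MSN4, MAF1, GCN4, PHO5, PHO84, FET3, BRR6, BRL1 and APQ12 were named outside it, after their values were seen, as were GLC7, CIT2, MDH2, MDH3, PYC1 and PYC2 where a count is spelled out. A few genes that the rule names are not reported here. MRP8 was taken off the mitochondrial ribosome list after its values were seen. The chromatin immunoprecipitation samples and peak list of the series were not used here.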

Additional observations from a re-analysis of the deposited data

Results flagged for a closer look

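The 10 genes given here had the largest differences in galactose effect between wild type and brr6-1 among the genes examined that passed the interaction term of the fit. Values are log2, brr6-1 minus wild type, with the adjusted p of that term. The stress genes YNL194C (-3.78 ± 0.72, 0.0192), SPG4 (-3.37 ± 0.56, 0.0111), DDR2 (-3.13 ± 0.79, 0.0478) and HSP12 (-2.97 ± 0.27, 0.00146) rose further in wild type. So did the NADPH oxidoreductase gene OYE3 (-3.67 ± 0.68, 0.0169), the dehydrogenase genes TDH1 (-3.66 ± 0.36, 0.00181) and ADH2 (-3.17 ± 0.50, 0.00907) and the glycogen synthase gene GSY1 (-3.20 ± 0.36, 0.00248). The phosphate genes PHO12 (3.12 ± 0.31, 0.00181) and SPL2 (2.88 ± 0.41, 0.00665) had the higher effect in brr6-1, where PHO12 went from 4.34 and 4.99 CPM in glucose to 3.37 and 3.83 CPM in galactose.

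PHO12 and HSP12 passed without any one of the wild-type libraries, with adjusted p of 0.0266 and 0.0266 without glucose A and 0.0283 and 0.0283 without glucose B. The other 8 genes missed the threshold without glucose B (0.0518 to 0.249), and YNL194C (0.126), OYE3 (0.107), SPG4 (0.0875), ADH2 (0.0733) and DDR2 (0.167) also without glucose A. DDR2 missed it without galactose A too (0.0900). The differences kept their sign in each of these fits.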

How the results depend on the processing

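Of 386 tested genes the rule or the text names, 265 passed, and 202 of those kept the call in all 13 alternatives while 63 lost it in at least 1. With library totals alone 2477 genes were higher, 629 lower, 1084 at least 2-fold higher and 84 at least 2-fold lower, and under cyclic loess 433 were at least 2-fold higher. Both scalings shift where no change lies, by construction, and the cause of the change with level was not tested. Leaving out one wild-type library gave 755 to 1482 genes higher, 793 to 1449 lower, 463 to 818 at least 2-fold higher and 147 to 429 at least 2-fold lower. The number of genes whose effect differed between strains was 585 by DESeq2's Wald test and 3 to 816 with one library left out. Each left-out library also removes a residual degree of freedom.

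Under cyclic loess 12 abundant genes took the opposite sign: PGK1 (0.88), FBA1 (0.55), ADH1 (0.64), ACS2 (0.41), FUN12 (0.38), PHO87 (0.35), FKS1 (0.57), PMA1 (0.74) and TDH3 (0.59) then passed upward, and YEF3 (0.12), HSC82 (0.074) and ENO2 (0.17) did not pass. The phosphate list's median was 0.029 with library totals alone. The medians of the lists for chaperones, ergosterol, fatty acids and phospholipids, anaerobic genes, sulfate, nitrogen and the nuclear pore lie close to 0 and took either sign across the scalings. The replicate letters were not taken to pair the libraries, since the correlation of the A minus B deviations was 0.060 between the wild-type groups and ran from -0.043 to 0.38 over all pairs of groups. A replicate block gave 1522 higher and 1298 lower. In the simulation 200 of 6245 genes were changed, and 29.9% of the 1.5-fold changes were called. In the data 2820 of 6297 genes passed, so the adjustment sets a looser cutoff on the unadjusted p there. The simulated rates therefore do not give the share of 1.5-fold changes missed in these data.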

Other observations

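Of the 6297 tested rows, 540 had no entry in the gene table. They had a median change of 0.51. Of them 33 were higher and 16 lower, smaller shares than the 24.3 and 20.5% of all tested genes. In these rows galactose A lay above galactose B by a median of 0.84 log2 units, against 0.09 between glucose A and B. Reads outside genes were 36.2 and 37.5% in the brr6-1 galactose libraries, close to the 37.3% of wild-type galactose A and above the 26.7% of wild-type galactose B.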
